A study of Mus musculus with 6 samples.

Results

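The 77 nuclear genes of mitochondrial ribosomal proteins in this mouse series were taken from the deposited count table as the rows whose symbol is Mrpl or Mrps followed by a number and at most 1 letter. They are 77 of 22770 rows, of which 48 carry the large subunit symbol Mrpl and 29 the small subunit symbol Mrps. The rows were picked by symbol alone, but with earlier results of these data known. RNA was measured in 3 libraries labelled Eif5a SKO and 3 labelled wild type, all made from round spermatids (haploid germ cells before elongation) sorted by flow cytometry on postnatal day 28 and mainly at step 8. The product of Eif5a keeps ribosomes moving over sequences where they stall, and the series asks how its loss changes the transcriptome of maturing spermatids. The labels do not spell out the letters SKO. The promoter that drove the deletion, the strain and whether each library came from a separate animal are not stated in the labels used here, so p-values measure the spread between these libraries, which may be technical. Smart-seq2 amplifies polyadenylated RNA, and with 1 column of counts per library fewer cells of a type and less RNA per cell cannot be told apart.

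Mitochondria keep a small genome that encodes core subunits of the respiratory chain, and they translate it on ribosomes of their own. Every protein of those ribosomes is encoded in the nucleus, made in the cytosol and imported. Many descend from bacterial ribosomal proteins and are named for that ancestry (uL, bL, uS and bS with a final m). Others carry names specific to mitochondria (mL and mS). The large subunit forms peptide bonds and threads the new chain to the inner membrane, and the small subunit reads the message. In spermatids the mitochondria are reshaped and later wrap the midpiece of the tail.

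Library totals ran from 52055193 to 60970931 counts, with 21177 to 22006 genes detected. Eif5a averaged 6.16 ± 0.77 CPM in SKO and 659.5 ± 42.3 CPM in wild type (SD, n = 3 each). CPM are counts scaled to the library size after TMM normalization, and fold changes are SKO over wild type throughout. In a principal component analysis, component 1 (64.6% of the variance) split SKO from wild type, and component 2 (13.5%) set SKO replicate 3 apart at -71.4 from SKO replicates 1 and 2 at 40.3 and 37.6. All 15 round spermatid markers were detected, of which 9 were higher and none lower in SKO; summed, they reached 8927 to 9741 CPM in SKO and 6346 to 7041 CPM in wild type. Of 14 Sertoli cell markers, 8 had a row and 7 of those were higher in SKO, with summed levels of 67.0 to 221.5 CPM in SKO and 2.49 to 11.4 CPM in wild type. Leydig markers summed to 8.01 to 44.6 CPM in SKO and 1.26 to 21.6 CPM in wild type, and peritubular myoid markers to 31.6 to 68.8 CPM in SKO and 5.06 to 14.1 CPM in wild type. Among markers of other cells, spermatocyte markers gave 1129 to 1473 CPM in SKO and 1335 to 1352 CPM in wild type, and spermatogonial markers 14.9 to 18.4 CPM in SKO and 21.2 to 24.9 CPM in wild type. Macrophage markers gave 1.05 to 4.14 CPM in SKO and 3.44 to 4.23 CPM in wild type. These sums hide calls in single genes. Of 9 spermatocyte markers, Sycp3 was higher (log2 fold change 1.82), Spo11 was lower (-0.72) and 7 were not called. Of 3 macrophage markers tested, Adgre1 was lower (-2.77) and 2 were not called.

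Genes of the mitochondrial ribosome were mostly higher in SKO spermatids. At an adjusted p under 0.05 in edgeR's quasi-likelihood test (2-sided, Benjamini-Hochberg over all 19776 genes tested), 45 of the 77 were higher, 4 were lower and 28 passed in neither direction. Over all genes tested, 21.2% were called higher and 20.9% lower. All 77 passed the filter on low counts, so none is missing from these counts. The median log2 fold change of the 77 was 0.57, with the middle of the list between 0.10 and 0.85, beside a median of 0.01 over all genes. Scaled by library totals alone, which moved the median of all genes to -0.23, 28 were higher and 8 lower, and the median of the 77 was 0.57 above that of all genes, against 0.56 with TMM. Every SKO library lay above every wild-type library for 49 of the 77 and below it for 7, where 27.3% and 28.3% of all genes did so. Changes were moderate in size, and 14 of the 45 reached 2-fold. Over all 19776 genes tested, 2321 of the 4185 called higher did so.

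**Figure D1:**
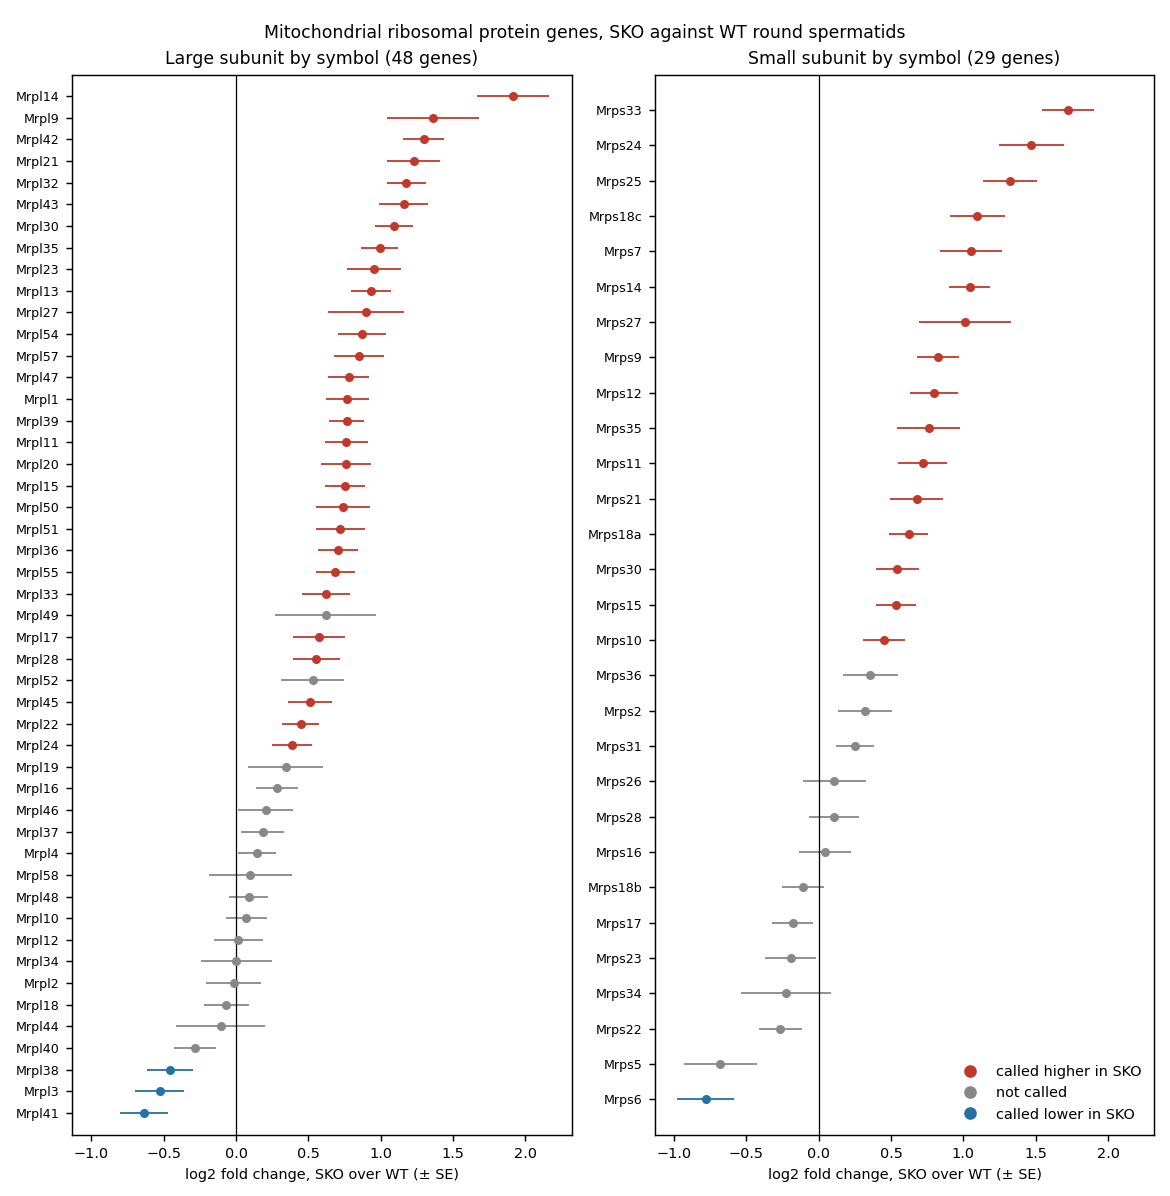
Log2 fold change, SKO over wild type, of each of the 77 genes with its standard error from edgeR, the 48 large subunit genes on the left and the 29 small subunit genes on the right, each ordered by size. Red points are called higher (29 large, 16 small), blue points lower (3 large, 1 small) and grey points neither.

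Summed over the 77 genes, the level was 5205, 5709 and 6307 CPM in the 3 SKO libraries and 3813, 3400 and 3761 CPM in the 3 wild-type libraries. The groups did not overlap, and the lowest SKO sum stood above the highest wild-type sum. As a plain share of the deposited counts, with no scaling factor, the genes took 0.473, 0.505 and 0.612% in SKO and 0.413, 0.374 and 0.405% in wild type. Without SKO replicate 3, the library that stood apart, 44 genes were called higher and 5 were called lower (median 0.49). The order of the SKO libraries was opposite for Sertoli markers: these were highest in SKO replicate 1 (221.5 CPM) and lowest in SKO replicate 3 (67.0 CPM), where the sum of the 77 genes was lowest in replicate 1 and highest in replicate 3. Summed round spermatid and peritubular myoid markers had the same order of SKO libraries as the 77 genes, and Leydig markers had neither order. The part of these cells in the result was not tested.

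Genes of both subunits were more often higher than lower in SKO. Of the 48 large subunit genes, 29 were higher and 3 lower in SKO, with a median log2 fold change of 0.62. Of the 29 small subunit genes, 16 were higher and 1 was lower (median 0.54). As shares, 60.4% of large and 55.2% of small subunit genes were higher, beside 21.2% of all genes tested. The shares lower were 6.25% and 3.45%, beside 20.9%. Library by library, the median log2 distance from the wild-type mean was 0.51, 0.59 and 0.73 for large subunit genes in SKO, against 0.07, -0.11 and 0.04 in wild type. Small subunit genes stood at 0.47, 0.52 and 0.53 in SKO, against 0.03, -0.09 and 0.06 in wild type. The difference between the subunits, large minus small, was 0.04, 0.07 and 0.20 in SKO and 0.04, -0.02 and -0.02 in wild type, so the groups overlapped and the balance of the subunits did not separate them.

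**Figure D2:**
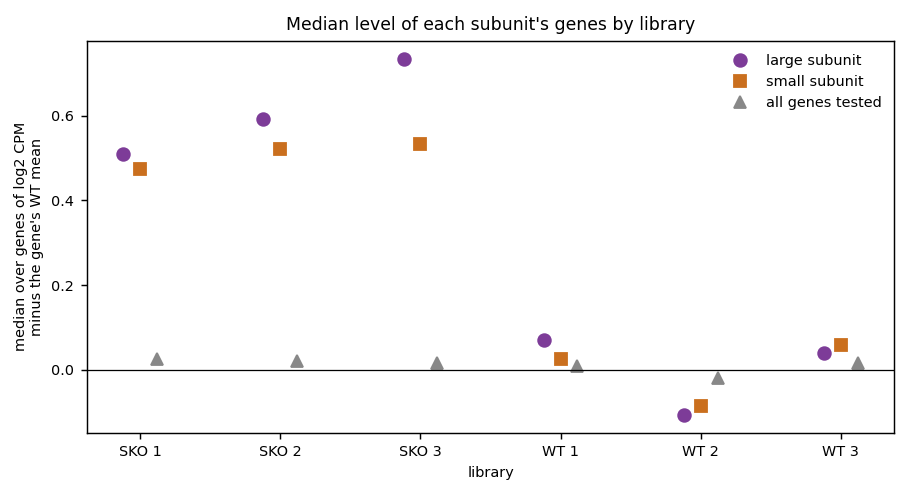
Median over genes of log2 CPM minus the gene's wild-type mean, in each of the 6 libraries, for large subunit genes (circles), small subunit genes (squares) and all genes tested that had counts in every library (triangles). Both subunits sit between 0.47 and 0.73 in the 3 SKO libraries and between -0.11 and 0.07 in the 3 wild-type libraries, while all genes stay near 0.

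Some symbols hide where a protein sits. Structures of the mammalian mitochondrial ribosome place the products of Mrps30 (mL65) and Mrps18a (mL66) in the large subunit, and Mrps36 encodes a protein now known as a part of the 2-oxoglutarate dehydrogenase complex of the citric acid cycle. Sorted by structure, 31 of 50 large subunit genes and 14 of 26 small subunit genes were higher in SKO, with medians of 0.62 and 0.49. These are 62.0% and 53.8%, beside 21.2% of all genes tested. Sorted by family name, 31 of the 46 genes named for a bacterial counterpart were higher and 2 lower (median 0.68). Of the 30 genes named mL or mS, 14 were higher and 2 lower (median 0.52). These 30 include Mrps18a (mL66) and Mrps18b (mS40), which descend from bacterial S18, so the names do not follow descent throughout. Of these lists split by both, the smallest median, 0.18, was that of the 10 small subunit genes named mS. Of these 10, which include Mrps18b, 4 were higher and none lower, beside 21.2% and 20.9% of all genes tested. These medians describe the lists, and the differences between them were not tested.

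Among large subunit genes, Mrpl14 had the highest fold change of all 77. It encodes uL14m, a protein of the face that meets the small subunit and the binding site of the assembly factor MALSU1, and lies on chromosome 17 (45686322 to 45698495, plus strand, GRCm38). Its levels were 8.28, 8.35 and 12.9 CPM in SKO and 2.44, 2.25 and 3.13 CPM in wild type. All SKO libraries were far above all wild-type libraries, replicate 3 the most, and the log2 fold change was 1.92 ± 0.25 (adjusted p = 0.000331 in edgeR). Exons of Tmem63b overlap 11.2% of the exonic bases of Mrpl14, and Tmem63b itself was lower in SKO (log2 fold change -1.33 ± 0.45, adjusted p = 0.0363 in edgeR).

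Mrpl42, Mrpl32 and Mrpl30 combined changes above 2-fold with high levels. Mrpl42, whose product mL42 exists only in mitochondria, had 107, 132.5 and 113 CPM in SKO and 52.2, 43.4 and 48.1 CPM in wild type. Its log2 fold change was 1.30 ± 0.14 (adjusted p = 0.000154 in edgeR), and the lowest SKO library lay above the highest wild-type library by more than the spread of either group. Mrpl32 encodes bL32m, which must be trimmed by an inner membrane protease before it can join the ribosome. It had 209, 221 and 250.2 CPM in SKO and 103, 90.8 and 106 CPM in wild type, a log2 fold change of 1.18 ± 0.13 (adjusted p = 0.000168 in edgeR). Mrpl30 (uL30m) had 211, 239 and 250.5 CPM in SKO and 116, 99.5 and 112 CPM in wild type, a log2 fold change of 1.09 ± 0.13 (adjusted p = 0.000228 in edgeR). For all 3 genes, every SKO library was above every wild-type library.

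A further group of large subunit genes roughly matched them in size. Log2 fold changes were 1.23 ± 0.18 for Mrpl21 (bL21m), 1.16 ± 0.17 for Mrpl43 (mL43), 0.99 ± 0.13 for Mrpl35 (bL35m) and 0.93 ± 0.14 for Mrpl13 (uL13m), each with an edgeR adjusted p between 0.000356 and 0.000715. Mrpl35 was the most abundant of the 4, at 246, 276 and 239.7 CPM in SKO and 135, 115 and 134 CPM in wild type. Groups did not overlap for any of the 4. For Mrpl43, 33.4% of the exonic bases are shared with Twnk, the gene of the mitochondrial DNA helicase, which was not called (log2 fold change 0.51 ± 0.33, adjusted p = 0.250 in edgeR).

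**Figure D3:**
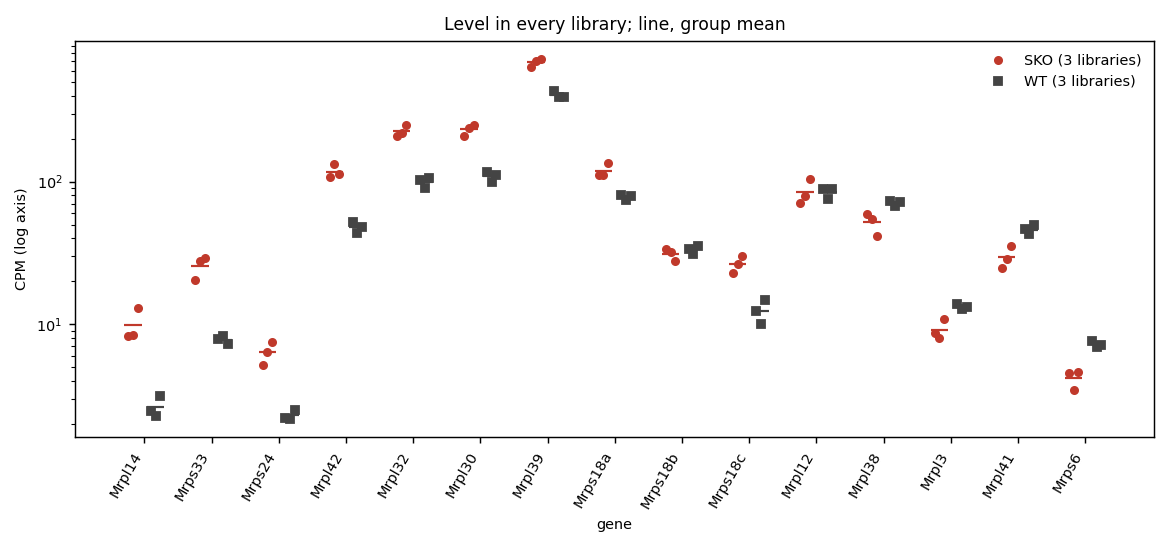
Level in CPM (log axis) of 15 genes in each of the 3 SKO libraries (red circles) and 3 wild-type libraries (dark squares), with a line at each group mean. The groups separate upward for Mrpl14, Mrps33, Mrps24, Mrpl42, Mrpl32, Mrpl30, Mrpl39, Mrps18a and Mrps18c, overlap for Mrps18b and Mrpl12, and separate downward for Mrpl38, Mrpl3, Mrpl41 and Mrps6.

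In the small subunit, Mrps33 changed most. It encodes mS33, a protein found only in mitochondria, on chromosome 6 (39801804 to 39810988, minus strand). Levels of 20.4, 27.6 and 29.3 CPM in SKO stood against 7.89, 8.21 and 7.28 CPM in wild type. Every SKO library exceeded every wild-type library, and the log2 fold change of 1.73 ± 0.18 had the lowest edgeR adjusted p of the 77 genes, 0.00011. Mrps24 encodes uS3m, which lines the entry path of the message. It had 5.12, 6.33 and 7.50 CPM in SKO and 2.20, 2.16 and 2.48 CPM in wild type, a log2 fold change of 1.47 ± 0.23 (adjusted p = 0.000814 in edgeR). The groups did not overlap. Exons of Urgcp on the same strand share 15.4% of the exonic bases of Mrps24, and Urgcp was lower in SKO (log2 fold change -1.99 ± 0.31, adjusted p = 0.000891 in edgeR).

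Mrps14 encodes uS14m of the small subunit head, where the decoding region is shaped. It had 113, 134 and 141.5 CPM in SKO and 68.7, 57.4 and 62.6 CPM in wild type, with a log2 fold change of 1.04 ± 0.14 (adjusted p = 0.000452 in edgeR). Mrps12 encodes uS12m, a protein of the decoding centre, and had 96.9, 105.5 and 143 CPM in SKO and 67.5, 62.0 and 69.5 CPM in wild type. Its log2 fold change was 0.80 ± 0.17 (adjusted p = 0.00411 in edgeR), and SKO replicate 3 was the highest library. Mrps25 (mS25) had a log2 fold change of 1.32 ± 0.19 (adjusted p = 0.000517 in edgeR), but 69.8% of its exonic bases lie under exons of Nr2c2 on the other strand. The strand setting of the counting is not given, so reads of the pair cannot be told apart; Nr2c2 itself was lower in SKO (log2 fold change -0.50 ± 0.16, adjusted p = 0.0303 in edgeR).

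Of the 3 genes descended from bacterial S18, Mrps18a and Mrps18c were called higher in SKO and Mrps18b was not. Mrps18c (bS18m) was the most changed, with 23, 26.4 and 30.3 CPM in SKO and 12.4, 9.95 and 14.9 CPM in wild type (log2 fold change 1.10 ± 0.19, adjusted p = 0.00155 in edgeR). Mrps18a (mL66) was also higher, with 112, 112 and 136 CPM in SKO and 80.1, 73.8 and 79.5 CPM in wild type (log2 fold change 0.62 ± 0.14, adjusted p = 0.00503 in edgeR). Mrps18b (mS40) had overlapping groups, with 33.5, 32.2 and 27.6 CPM in SKO and 33.9, 31.3 and 35.5 CPM in wild type (log2 fold change -0.11 ± 0.15, adjusted p = 0.573 in edgeR). Whether the 3 fold changes differ from each other was not tested. Scaled by library totals alone, Mrps18a no longer passed (log2 fold change 0.39). Exons of Gm43511 on the same strand share 23.2% of the exonic bases of Mrps18c. For Mrps18b, 30.5% are shared with Gm16279 on the other strand, which was not called.

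Only 4 of the 77 genes were lower in SKO. Mrps6, whose product bS6m pairs with bS18m on the small subunit platform, had 4.50, 3.47 and 4.61 CPM in SKO and 7.54, 6.95 and 7.12 CPM in wild type, a log2 fold change of -0.78 ± 0.20 (adjusted p = 0.0105 in edgeR). Mrpl41 (mL41) had 24.9, 28.5 and 35.6 CPM in SKO and 46.4, 42.6 and 49.3 CPM in wild type, a log2 fold change of -0.64 ± 0.17 (adjusted p = 0.0126 in edgeR). Both genes had every SKO library below every wild-type library. Mrpl3 encodes uL3m, which reaches toward the peptide bond forming centre, and had 8.65, 7.98 and 10.8 CPM in SKO and 13.7, 12.8 and 13.1 CPM in wild type (log2 fold change -0.53 ± 0.17, adjusted p = 0.0327 in edgeR). Mrpl38 (mL38) had 59.2, 54.6 and 41.7 CPM in SKO and 73.4, 67.5 and 72.1 CPM in wild type (log2 fold change -0.45 ± 0.16, adjusted p = 0.0422 in edgeR). The calls of Mrpl3 and Mrpl38 sat near the threshold and were lost without SKO replicate 2 or without any 1 wild-type library, and that of Mrpl3 also without SKO replicate 1. Both were also lost with the replicate block, with the length and GC correction, and with the 2 combined. Mrpl41 lost its call without wild-type replicate 3. The call of Mrps6 was kept in each of the 16 alternative fits, although on the same strand Gm49711 shares 19.9% of its exonic bases and Slc5a3, which was not called, 10.4%.

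Several genes with distinct roles passed in neither direction. Mrpl12 encodes bL12m, the stalk protein that recruits translation factors and that also binds the mitochondrial RNA polymerase. It had 70.7, 79.4 and 105 CPM in SKO and 88.3, 75.2 and 88.8 CPM in wild type, with overlapping groups and a log2 fold change of 0.02 ± 0.17 (adjusted p = 0.950 in edgeR). Its sign turned under 5 alternatives, among them library totals alone (-0.21). Mrps36 had 32.7, 35.2 and 47.5 CPM in SKO and 33.3, 24.7 and 32.0 CPM in wild type (log2 fold change 0.36 ± 0.19, adjusted p = 0.158 in edgeR). Mrpl19 (bL19m), the least abundant of the 77 per length, had a log2 fold change of 0.34 ± 0.26 (adjusted p = 0.315 in edgeR), and 36.0% of its exonic bases are shared with Gcfc2. Of the 77 genes, 24 share at least 5% of their exonic bases with another gene, of which 14 were higher and 1 lower (median 0.63), and of the other 53, 31 were higher and 3 lower (median 0.57).

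Grouped by place in the ribosome, counts of calls differed and moved with the processing. All 6 genes listed for the peptide exit tunnel and the membrane anchor were higher in SKO: Mrpl17, Mrpl22, Mrpl23, Mrpl24, Mrpl45 and Mrpl47, with log2 fold changes of 0.38 to 0.96. That count ranged from 2 to 6 over the 16 alternative fits: it was 2, Mrpl23 and Mrpl47, with library totals or the replicate block, and also 2 without wild-type replicate 1 or 2, and 3 without wild-type replicate 3. Mrpl24 (adjusted p = 0.0473 in edgeR) lost its call in 12 of the 16, Mrpl22 in 7, and Mrpl17 and Mrpl45 in 6 each. Mrpl23 (uL23m), at the mouth of the tunnel, was the most changed of these, with 6.90, 8.44 and 8.12 CPM in SKO and 4.14, 3.82 and 4.14 CPM in wild type (log2 fold change 0.96 ± 0.19, adjusted p = 0.00289 in edgeR). Mrpl45 encodes mL45, the anchor that holds the large subunit to the inner membrane. It had 18.1, 18.3 and 16.6 CPM in SKO and 12.5, 11.3 and 13.3 CPM in wild type (log2 fold change 0.51 ± 0.15, adjusted p = 0.0210 in edgeR). The tunnel list need not be complete: Mrpl4 (uL4m), left off it, was not called (log2 fold change 0.14 ± 0.13, adjusted p = 0.399 in edgeR). All 4 listed genes of the small subunit head, Mrps7, Mrps9, Mrps10 and Mrps14, were higher too, with a median of 0.93, but Mrps10 lost its call in 8 of the 16 alternative fits, among them library totals and each fit that left out a wild-type library. The other 3 were called in all 16. The head list need not be complete either. Mrps24, Mrps33 and Mrps35, left off it, were higher, and Mrps31 was not called (log2 fold change 0.25 ± 0.13, adjusted p = 0.159 in edgeR).

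The central protuberance, the crest of the large subunit that faces the small one, is formed in part by the products of 7 listed genes. Of these, only Mrpl55 (bL31m) was higher in SKO (log2 fold change 0.69 ± 0.14, adjusted p = 0.00305 in edgeR), Mrpl38 was lower, and Mrpl18, Mrpl40, Mrpl46, Mrpl48 and Mrpl58 passed in neither direction. At 14.3% in each direction, these counts are near the 21.2% and 20.9% of all genes and are no result about the list. Its median was 0.09. Of the 3 listed stalk genes, Mrpl11 was higher (log2 fold change 0.76 ± 0.15, adjusted p = 0.00295 in edgeR), while Mrpl10 and Mrpl12 were not called. The lists of the stalk and of the central protuberance need not be complete either. These lists hold 3 to 7 genes each, and their differences were not tested.

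Levels spread widely. Per kilobase of transcript, they ran from 0.568 to 514 CPM in SKO and from 0.448 to 280.3 CPM in wild type, with medians of 28.1 in SKO and 21.5 in wild type. The highest was Mrpl54 (mL54), at 514 CPM per kilobase in SKO and 280.3 in wild type, followed by Mrpl20 (335 in SKO, 197 in wild type) and Mrpl39 (301 in SKO, 177 in wild type). Mrpl54 had 256, 286.5 and 389 CPM in SKO and 176, 157.5 and 174 CPM in wild type, a log2 fold change of 0.87 ± 0.17 (adjusted p = 0.00257 in edgeR). Mrpl39 had 641, 699 and 730.5 CPM in SKO and 432, 392.2 and 395 CPM in wild type, a log2 fold change of 0.76 ± 0.12 (adjusted p = 0.000874 in edgeR). The same 3 genes led in both groups in the same order. Across the 77 genes, Spearman's rho between the wild-type level and the log2 fold change was 0.04, a description over genes of the same 6 libraries.

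Most of these genes are short, and short genes as a class were higher in SKO. Coding lengths of the 77 ran from 261 to 1326 bases with a median of 588. All autosomal coding genes tested were cut into 8 bins of coding length, and the 77 fell into the 4 shortest. In the shortest, 93 to 567 bases, 25 of 36 genes of the mitochondrial ribosome were higher, with a median log2 fold change of 0.75, beside 47.2% and 0.56 for all 1591 genes of the bin. In the next, 569 to 807 bases, 12 of 21 were higher (median 0.45), beside 38.3% and 0.35 for all genes of the bin. In the third, 5 of 12 were higher (median 0.33), beside 19.6% and 0.04. In the fourth, 1053 to 1329 bases, 3 of 8 were higher (median 0.22), beside 13.6% and -0.10. After a loess correction of each library for transcript length and GC content, 40 of the 77 were called higher and 3 lower by edgeR, with a median of 0.50, of which the large subunit had 0.52 and the small subunit 0.38. By bin, short to long, the corrected medians were 0.62, 0.31, 0.47 and 0.17 for the 77 genes, beside 0.37, 0.31, 0.07 and 0.00 for all genes. In the bin of 569 to 807 bases, with 21 of the 77 genes, the corrected medians were thus 0.309 and 0.307, and the difference from other genes of that length was gone. That fit is 1 of the alternatives, and what the length of a gene contributes was otherwise not tested.

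**Figure D4:**
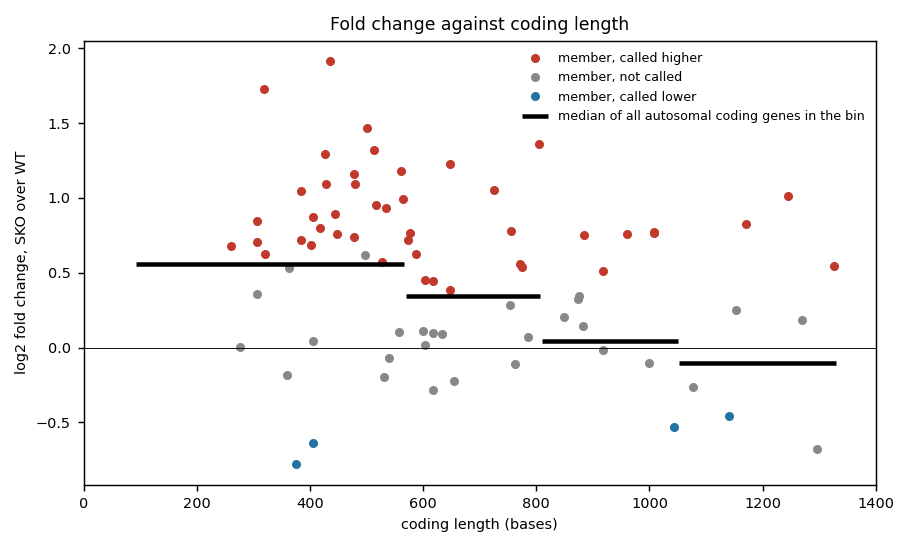
Log2 fold change, SKO over wild type, of each of the 77 genes against its coding length in bases, coloured by call, with a bar at the median of all autosomal coding genes in each length bin (0.56, 0.35, 0.04 and -0.10). The medians of the 77 genes in these bins (0.75, 0.45, 0.33 and 0.22) lie above the bar in each.

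Some of these genes start near a neighbour on the other strand. For 33 of the 77, another coding gene starts on the opposite strand within 1000 bases, with Mrpl46 and Mrps11 counted as each other's partner. The share over all coding genes was not computed. For 18 of the 33, the 2 genes do not overlap. Of those, 17 had a partner that was tested: 1 partner was higher in SKO, 6 were lower and 10 were not called, beside 21.2% higher and 20.9% lower over all genes. Among the 9 pairs whose ribosomal gene was higher, no partner was higher, 4 were lower and 5 were not called. Of the ribosomal genes that overlap their partner at the start, 14 had a tested partner, and for the 10 of these that were higher, 3 partners were higher, 2 lower and 5 not called. The 3 were Ndufb5 beside Mrpl47 (log2 fold change 1.04), Oaz3 beside Mrpl9 (0.64) and Ndufs6 beside Mrpl36 (0.54), and reads of overlapping genes may be shared. Of the pairs without overlap, fold changes lay furthest apart for Mrpl54 and Apba3, which encodes an adaptor of the amyloid precursor protein. The starts of these 2 genes lie 26 bases apart. Apba3 had 2.42, 1.32 and 2.75 CPM in SKO and 14.5, 16.2 and 12.98 CPM in wild type, a log2 fold change of -2.75 ± 0.27 (adjusted p = 8.61e-05 in edgeR), where Mrpl54 stood at 0.87. Mrps12 starts 172 bases from Sars2, the mitochondrial seryl-tRNA synthetase gene, which had 6.61, 3.60 and 5.13 CPM in SKO and 10.05, 10.2 and 10.6 CPM in wild type (log2 fold change -1.01 ± 0.23, adjusted p = 0.00643 in edgeR). In both pairs the groups did not overlap for either gene, and the genes moved in opposite directions. Mrps27 and Ptcd2, and Mrpl50 and Zfp189, were the other pairs of this kind, and the call of Mrps27 was lost under 5 alternatives.

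**Figure D5:**
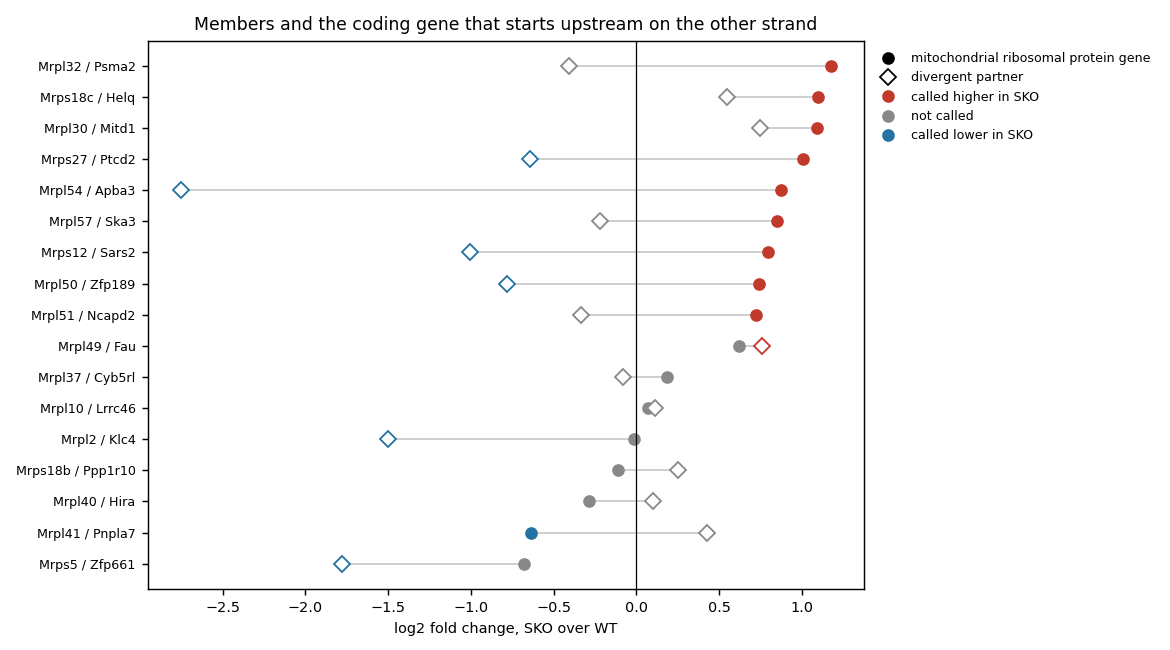
Log2 fold change, SKO over wild type, of 17 genes of the mitochondrial ribosome (filled circles) and of the coding gene that starts beside each on the other strand without overlap (open diamonds), coloured by call and joined by a line. In 4 pairs a red circle stands opposite a blue diamond, the widest being Mrpl54 and Apba3.

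Promoters of the genes were searched for 6 motifs, since nuclear genes for mitochondrial proteins are known to carry sites of the activators NRF1 and GABPA (also called NRF2) and of YY1. RefSeq gives a window of 250 bases before to 50 after the start for 68 of the 77 genes and for 12752 genes tested in all. The NRF1 core GCGCANGCG, on either strand, was in 16 of the 68 (23.5%), in 12.3% of tested genes and in 6.25% of all 32851 windows. The GABPA motif CCGGAAG was in 25 (36.8%), in 16.7% of tested genes and in 8.86% of all windows. The YY1 motif AAGATGGCG was in 8 (11.8%), in 2.87% of tested genes and in 1.4% of all windows. At least 1 of these 3 was in 41 of the 68 genes (60.3%) and in 27.9% of tested genes. The other motifs were nearer to the shares of tested genes: CCAAT (NFY) in 38.2% of the 68 and 42.4% of tested genes, GGGCGG (SP) in 50% and 54.2%, and TGACGTCA (CRE) in 2.94% and 3.27%.

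Medians with and without a motif lay close together for NRF1 and GABPA and further apart for YY1, with no test of the difference. The median log2 fold change was 0.62 for the 16 genes with the NRF1 core and 0.59 for the 52 without it, and 11 of the 16 were higher in SKO. With the GABPA motif the median was 0.57, and without it 0.62. With the YY1 motif the median was 0.86 over 8 genes, of which 7 were higher, and without it 0.54. Of all tested genes, those with the NRF1 core were called higher in 23.2% and those without in 21.8%. For the GABPA motif these shares were 20.5% and 22.3%, and for the YY1 motif 21.3% and 22.0%. The median of all tested genes was -0.07 with the YY1 motif and -0.01 without it, so the larger median with YY1 was not seen over all genes. A match describes letters only, and binding was not measured.

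The 150 bases before the RefSeq start (GRCm38.p6) of 4 genes are shown with motif matches in capitals, because they put the same letters beside different responses; they were picked after their values were seen. The window of Mrpl45, higher in SKO, lies at chr11:97315566-97315715 on the plus strand and holds the NRF1 core at 2 places. That of Mrpl22 (uL22m of the exit tunnel), higher in SKO, lies at chr11:58171514-58171663 on the plus strand and holds the GABPA motif and then the NRF1 core. That of Mrpl12, not called, lies at chr11:120484487-120484636 on the plus strand and holds the NRF1 core, read on the other strand. That of Mrpl3, lower in SKO, lies at chr9:105053118-105053267 on the plus strand and holds the GABPA motif.
Mrpl45: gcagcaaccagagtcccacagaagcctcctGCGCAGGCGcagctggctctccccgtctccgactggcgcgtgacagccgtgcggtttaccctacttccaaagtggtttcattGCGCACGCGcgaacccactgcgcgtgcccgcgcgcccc
Mrpl22: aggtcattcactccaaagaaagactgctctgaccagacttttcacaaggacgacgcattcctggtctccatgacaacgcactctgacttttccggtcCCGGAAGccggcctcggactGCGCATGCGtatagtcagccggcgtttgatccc
Mrpl12: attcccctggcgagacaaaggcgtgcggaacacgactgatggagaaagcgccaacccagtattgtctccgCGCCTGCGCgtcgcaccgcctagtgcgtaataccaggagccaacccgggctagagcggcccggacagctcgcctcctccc
Mrpl3: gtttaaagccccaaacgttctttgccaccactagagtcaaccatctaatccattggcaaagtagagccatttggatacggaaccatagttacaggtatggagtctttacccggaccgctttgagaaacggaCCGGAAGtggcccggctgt

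Lists of partners of the mitochondrial ribosome held calls in both directions, beside 21.2% called higher and 20.9% lower over all genes tested. Of 5 further ribosomal proteins known under other symbols, 2 were higher and 1 lower. Aurkaip1 (mS38) had a log2 fold change of 0.70 ± 0.17 (adjusted p = 0.0087 in edgeR) and Dap3 (mS29), the GTP-binding protein of the small subunit, 0.51 ± 0.12 (adjusted p = 0.0077 in edgeR), while Ptcd3 (mS39) had -0.60 ± 0.21 (adjusted p = 0.0442 in edgeR). Of 24 assembly factors tested, 2 were higher, 2 lower and 20 not called, with a median of 0.09. At 8.33% in each direction, these counts are below the shares of all genes. Malsu1, whose product binds uL14m during assembly of the large subunit, was the most changed of these upward, at 1.30 ± 0.20 (adjusted p = 0.000758 in edgeR), and the RNA methyltransferase gene Nsun4 was at 0.80 ± 0.22. The lower ones were Trub2, a pseudouridine synthase gene, at -1.09 ± 0.32, and Mettl17 at -0.73 ± 0.22.

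Of 16 genes of mitochondrial translation factors, 2 were higher and 3 lower in SKO, and their median was -0.21. At 12.5% and 18.8%, beside 21.2% and 20.9% of all genes, these counts are no result about the list. The elongation factor genes Tufm and Gfm1 fell, with log2 fold changes of -0.68 ± 0.15 and -0.67 ± 0.18 (adjusted p = 0.00546 and 0.0143 in edgeR). The initiation factor gene Mtif2 rose, at 0.80 ± 0.21 (adjusted p = 0.0115 in edgeR), as did Guf1, at 0.89 ± 0.29 (adjusted p = 0.0336 in edgeR). Among 12 genes of mitochondrial transcription and RNA handling the median was -0.11, with 3 called higher and 2 called lower. Tfam, which packages mitochondrial DNA and starts its transcription, was higher at 1.06 ± 0.17 (adjusted p = 0.000922 in edgeR), and Mtpap, the mitochondrial poly(A) polymerase gene, was lower at -1.23 ± 0.28 (adjusted p = 0.00646 in edgeR). Ppargc1a encodes the coactivator PGC-1alpha, which works with NRF1 at its target genes. It had 0.330, 0.297 and 0.356 CPM in SKO and 6.32, 5.85 and 7.39 CPM in wild type, a log2 fold change of -4.31 ± 0.26 (adjusted p = 1.09e-05 in edgeR), opposite in direction to most of the 77 genes.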

How the data were processed

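The authors deposited raw counts per gene, 1 column per library, and columns were matched to samples through genotype and replicate number; those named cKO were taken as the libraries labelled SKO. Per the labels' protocols, cDNA was made by Smart-seq2 and sequenced as pairs of 150 bases. Smart-seq2 has no molecular identifiers, so copies of 1 molecule are counted separately. Per the submitters' processing notes, the tools were Trim Galore 0.6.4, FastQC, featureCounts 1.5.0-p3 and HISAT2 2.0.5, with GRCm38 (mm10). The annotation release and strand setting are not stated there, so overlapping and antisense genes cannot be separated. Replicates differed beyond sampling noise (chi-square per degree of freedom 14.2 to 141) and were kept as 6 libraries.

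From the deposited counts, edgeR 4.0.16 in R 4.3.3 was run on the whole table with default filterByExpr (minimum counts 10 and 15), TMM scaling and group as its only term. This left 19776 genes tested and 2994 below the filter. Standard errors were computed as the size of the log2 fold change over the square root of F. Per-library medians used log2 CPM with no prior count, over genes with counts in every library (all 77 members and 19016 of all genes tested). A prior count of 2 was used for the principal component analysis, the check of replicate pairing and the loess correction. The fit was checked on simulated counts with 200 changed genes, in equal numbers up and down. Far more genes were called in these data, so that check cannot speak to the scaling between the groups. Gene positions, lengths and exon overlaps came from GENCODE M21, matched by symbol for 22023 of 22770 rows (96.7%); lengths are of the transcript with the longest coding sequence. Promoter windows came from RefSeq (GRCm38.p6).

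Members and lists were chosen with earlier results of these data known, so no list was tested as a set and p-values were adjusted over all genes. Members named are by lowest adjusted p the 12 first called higher and 8 first called lower (only 4 were), then Mrps18a, Mrps18b, Mrps18c, Mrps30, Mrps36, Mrpl12, Mrps12, Mrpl23 and the extremes of level per length. Mrpl39, Mrpl20, Mrpl11, Mrpl45, Mrpl22, Mrpl55, genes listed by place and divergent partners were named after their values were seen. From other lists, at most 2 genes per direction were named. The alternatives tried were limma-voom (limma 3.58.1), DESeq2 (1.42.0), DESeq2 size factors, library totals, upper quartile factors, a 5 CPM filter (in 3 libraries), no filter, each library left out, the replicate number as a block, a loess correction (span 0.5) for length and GC content, other thresholds, subunits by structure, and leaving out Mrps36. Restriction to genes sharing under 5% of their exonic bases was added after seeing the data.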

Additional observations from a re-analysis of the deposited data

How the results depend on the processing

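Against 45 members higher and 4 lower, scaling by library totals gave 28 and 8, with medians of 0.343 for all members, 0.386 for the large and 0.299 for the small subunit; it moved the median of all genes to -0.228, and the members' median relative to that was 0.57, against 0.56 with TMM. DESeq2 and limma-voom each gave 45 and 5. At an adjusted p under 0.01 by edgeR, 31 members were higher and 0 lower, and at least 2-fold changes left 14 and 0. The filter of 5 CPM gave 40 and 4, 2742 lower calls among all genes and a large minus small difference of 0.194, against 0.0862. That filter removed some members, among them Mrpl9, Mrpl27, Mrps24, Mrps27 and Mrps35, which were called higher without it. No member that it kept lost its call, and the difference is over the members kept. The small subunit median was 0.573 with upper quartile factors, 0.379 with the length and GC correction, 0.38 with that correction and the replicate block, and 0.493 by structure. The replicate numbers did not pair the libraries (correlations of deviations -0.022, -0.051 and -0.065); with the replicate block, 39 members were higher and 2 lower. Members sharing under 5% of exonic bases had a median of 0.57, with 31 of 53 higher. Leaving out 1 library gave 34 to 44 higher and 1 to 5 lower (fewest higher without wild-type replicate 2, fewest lower without wild-type replicate 3, and 2 lower without any of SKO replicate 2 and wild-type replicates 1 and 2), with medians of 0.422 to 0.578 for the small subunit and a large minus small difference of 0.0494 to 0.197, largest without SKO replicate 2. Of the 49 called members, 26 were called in all 16 alternative fits, 2 (Mrpl9 and Mrps24) in the 15 fits that held them, and none reversed. Mrpl12, at 0.02, reversed with library totals (-0.214), limma-voom (-0.000341), the replicate block (-1.04e-05) and without SKO replicate 3 (-0.196) or wild-type replicate 2 (-0.0605), with -0.196 to 0.114 over the libraries left out. Mrps36 reversed with the length and GC correction (-0.00756; with the replicate block -0.0142). The call of Mrps30 was lost under 4 alternatives. The causes were not tested.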

Other observations

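Mrps30, whose product mL65 sits in the large subunit, had 69.2, 76.4 and 58.3 CPM in SKO and 48.9, 43.9 and 47.1 CPM in wild type, with a log2 fold change of 0.54 ± 0.15 (adjusted p = 0.0147 in edgeR) and no overlap of the groups. The genes are spread over 17 chromosomes, and 0 of the 77 lie on the X or Y chromosome. Mrpl46 and Mrps11, which overlap on opposite strands and give the large and the small subunit 1 protein each, had log2 fold changes of 0.21 and 0.72; Mrps11 was called higher and Mrpl46 was not called by edgeR.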
